A study of Mus musculus with 24 samples.

Results

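Gene expression in the livers of 6 mice that had received streptozotocin (STZ) and a diet with 0.1% quercetin was compared with that in the livers of 6 untreated control mice. These were 12 of the 24 arrays of the series, with the liver RNA of 1 mouse on each array. Every probe set annotated with 1 gene symbol was included, which was 34958 of the 45101 probe sets on the array. After 13 control probe sets were set aside, these stood for 18193 genes, each represented by its brightest probe set, and 13113 of them were bright enough to be tested. All mice were BALB/c males, obtained at 6 weeks of age. The mice of the treated group were injected into the peritoneum with 185 mg/kg STZ and were used if their non-fasting blood glucose, measured 1 week later, lay between 230 and 400 mg/dL. They then ate the purified AIN93G diet with 0.1% quercetin for 14 days. The control mice ate AIN93G without quercetin for 14 days and, per the labels, had no treatment, so they had neither STZ nor quercetin, and no vehicle injection is named. The comparison therefore holds STZ and quercetin together, and within it their parts cannot be told apart. The series has a group of 6 STZ mice on plain AIN93G and a group of 6 STZ mice on AIN93G with 0.5% quercetin, and both are used below where a difference from this group was tested. Cages held 3 mice, and the labels do not tie mice to cages. Individual glucose values are not used here.

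STZ is a glucose-like alkylating agent that enters cells through the glucose transporter GLUT2. It kills the insulin-secreting beta cells of the pancreas and damages DNA. Hepatocytes carry GLUT2 as well, so the liver of an STZ-treated animal is exposed both to the loss of insulin and to the agent itself. In liver, insulin normally turns on glycolysis and the synthesis of fatty acids and cholesterol through the transcription factor SREBP and holds back glucose production. DNA damage activates the transcription factor p53, whose targets stop the cell cycle and repair DNA. Quercetin is a plant flavonol, an antioxidant polyphenol of fruits and vegetables.

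Values below are log2 levels, that is log2 of the normalized probe set intensity plus 16, and differences are those of log2 levels, treated minus control, so that 1 is close to a doubling for a bright gene and understates the change of a dim one. A gene was said to have risen or fallen where its adjusted p in limma, after Benjamini-Hochberg adjustment over the 13113 genes, was below 0.05. Mean array intensity before normalization was 61.7 to 102 in controls and 64.4 to 91 in the 0.1% quercetin group. The first principal component, which held 22.4% of the variance, ran from -18.29 to -13.54 in controls and from -0.4236 to 19.65 in the 0.1% quercetin mice, with no overlap. Replicates 2 and 4 of the quercetin group lay nearest to the controls on this axis and replicates 5 and 6 lay farthest. In the 0.5% quercetin group, replicates 5 and 6 lay at -17.21 and -19.25, within or beyond the range of the controls and away from the other STZ-treated mice, so results on that group are given with and without them.

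A measure of RNA quality also differed between the groups. The log2 difference between the 3' and 5' probe sets of Gapdh was -0.308 ± 0.133 (SD, n = 6) in the 0.1% quercetin group and -0.0375 ± 0.162 (SD, n = 6) in controls (exact permutation test, two-sided p = 0.00866, adjusted over both measures 0.0173). The same measure for Actb was 1.2 ± 0.117 and 1.24 ± 0.225 (SD, n = 6 each; exact permutation test, p = 0.74). The STZ group without quercetin had a Gapdh value of -0.341 ± 0.0934 (SD, n = 6). With the Gapdh measure as a covariate in the fit, the 731 genes called below all kept their sign and 565 of them had an unadjusted p under 0.05 in limma, but only 2 passed after Benjamini-Hochberg adjustment, Ifi27l2b at 0.97 ± 0.15 (SE) and Aebp2 at 0.56 ± 0.08 (SE). Replicates 5 and 6 of 0.5% quercetin, which lay with the controls on the first component, had Gapdh values of -0.0533 and 0.00283. Both are within the control range of -0.161 to 0.264, as is replicate 1 of that group at -0.149. The covariate fit held these arrays and was not run without them. In it the parts of RNA quality and of treatment cannot be told apart. The shift in Gapdh goes along with the treatment in these arrays, and every count of genes below stands beside it.

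**Figure D1:**
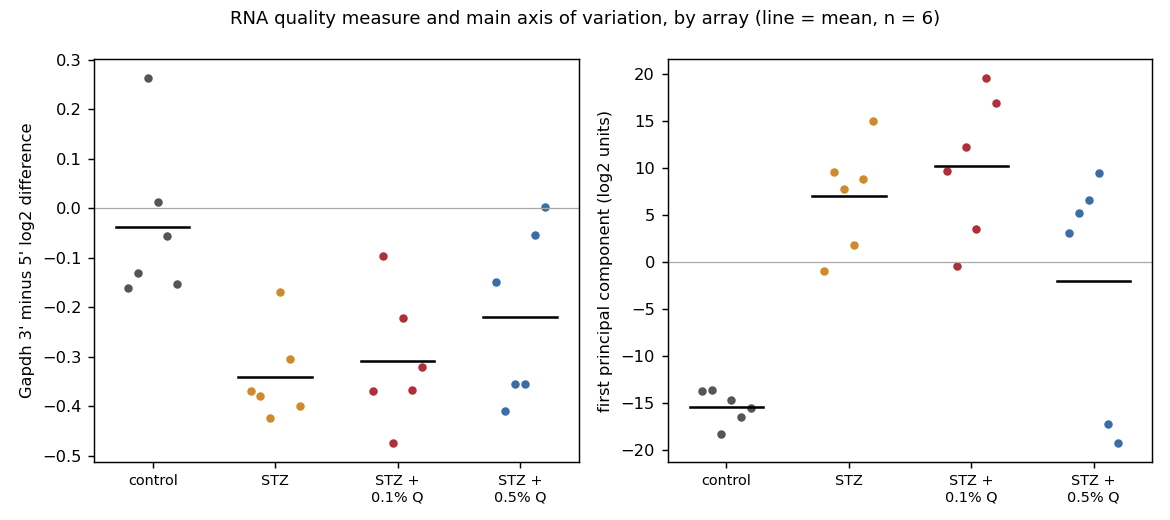
Left, Gapdh 3' minus 5' log2 difference of each array by group; right, position of each array on the first principal component of the log2 levels. Points are arrays, lines are means of 6. Controls lie between -18.29 and -13.54 on the component and the 0.1% quercetin mice between -0.4236 and 19.65, and 2 arrays of 0.5% quercetin lie with the controls.

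In all, 385 genes rose and 346 fell with STZ plus 0.1% quercetin, which is 2.94% and 2.64% of the genes tested, together 5.57%. Of these, 58 rose and 28 fell at least 2-fold on this scale. In 276 genes, 2.1% of those tested, all 6 treated mice lay above all 6 controls, and in 240 genes, 1.83%, all 6 lay below. The median difference over all genes tested was -0.01. Scaling the arrays to a common median in place of quantile normalization gave 220 higher and 539 lower, which takes the share of higher calls from 52.7% to 29%, so the balance of rises and falls depends on the scaling. Without quercetin replicate 5 the counts were 244 and 196, and without replicate 6 they were 249 and 211. All groups share 1 estimate of the spread, so every SE and adjusted p here also holds the spread of the 0.5% quercetin group. Its control-like replicates 5 and 6 stayed in the main fit and in the fits without 1 array. With both left out, 468 genes were higher and 427 lower. With only the groups compared the counts were 405 and 321.

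**Figure D2:**
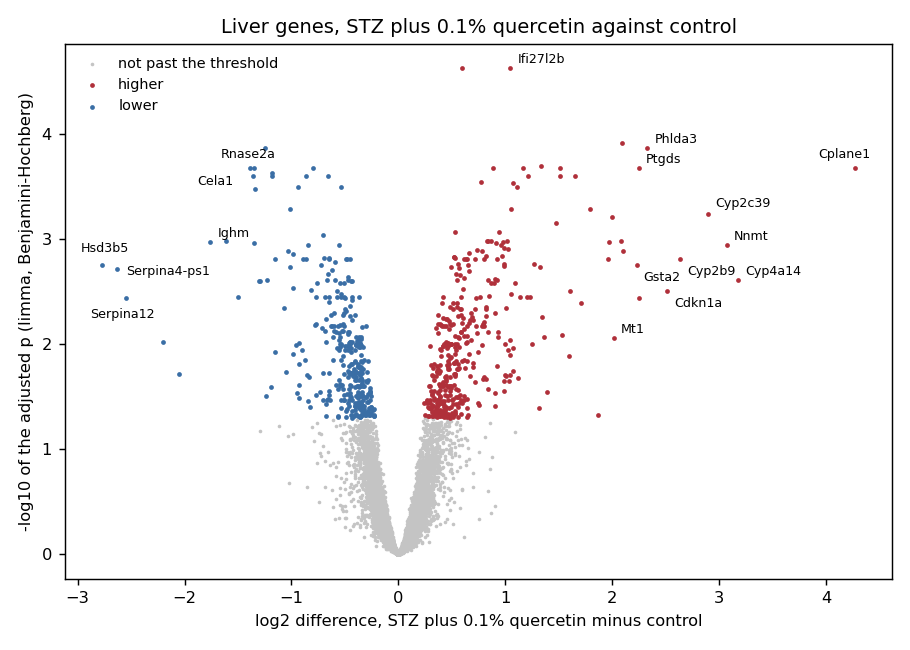
Each point is 1 of 13113 genes, with its log2 difference (treated minus control) on the x axis and the -log10 of its adjusted p on the y axis; red genes rose, blue genes fell, and genes named in the text are labelled. Cplane1 lies farthest to the right at 4.27, and Hsd3b5 farthest to the left at -2.77.

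Lists with many rising members were the targets of p53, drug-metabolizing and glutathione enzymes, genes with female-biased expression in mouse liver, and genes of antigen presentation. The falling genes included the male-biased genes of liver, enzymes of fatty acid and cholesterol synthesis, glycogen-targeting subunits and several complement components. Markers of hepatocytes, the respiratory chain, chaperones of the endoplasmic reticulum and heat shock proteins gave no call in either direction: 0 of 14, 0 of 38, 0 of 29 and 0 of 17 members tested, by limma with Benjamini-Hochberg adjustment. At an unadjusted p under 0.05 the counts were 2, 1, 4 and 2. The hepatocyte list gave 1 fall under median scaling, and the chaperones of the endoplasmic reticulum 1 without quercetin replicate 2.

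**Figure D3:**
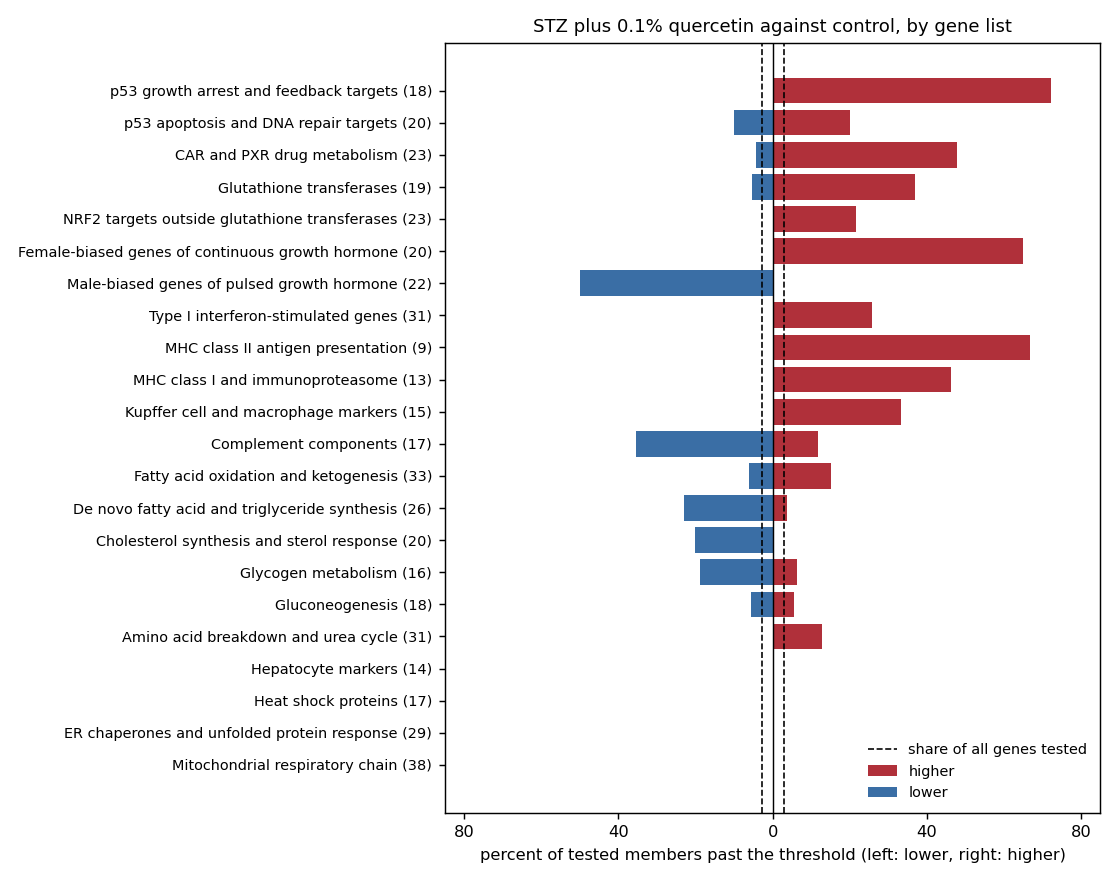
Share of the tested members of each gene list that fell (blue, left) or rose (red, right) in STZ plus 0.1% quercetin against control, with the number tested in brackets; dashed lines mark the shares over all genes tested, 2.64% lower and 2.94% higher. The p53 arrest targets reach 13 of 18 on the right and the male-biased genes 11 of 22 on the left.

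Genes that p53 switches on to arrest the cell cycle, and those that feed back on p53, rose as a group. Of 18 tested, 13 rose and none fell, with a median difference of 0.96 against -0.01 over all genes, and in all 13 of them every treated mouse lay above every control. Cdkn1a encodes p21, the inhibitor of cyclin-dependent kinases that carries out p53 arrest. Its log2 level was 4.85 at the lowest, 5.57 at the median and 6.04 at the highest control, and 7.52, 8.08 and 8.48 in the treated mice. All treated mice were thus clear of the controls, and the difference was 2.51 ± 0.50 (SE, adjusted p = 0.00308, limma), or 3.06 and 1.71 with added constants of 1 and 64. Phlda3, a p53-induced repressor of Akt, ran from 4.58 through 4.64 to 4.93 in controls and from 6.79 through 7.06 to 7.28 in treated mice. Its difference was 2.33 ± 0.31 (SE, adjusted p = 0.000136, limma), and the treated mice lay close together. Ccnd1, the gene of cyclin D1, was placed on the same list, although cyclin D1 drives the cell cycle and does not arrest it. It rose by 1.79 ± 0.29 (SE, adjusted p = 0.000511, limma), from a median of 6.19 to one of 7.50.

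Other p53 targets followed, and those named beyond the first 3 of a list here and below were picked after their values were seen. Plk2, a kinase of centriole duplication, rose by 1.47, Ccng1, cyclin G1, by 1.27, Zmat3, an RNA-binding p53 target, by 0.98 and Mdm2, the ubiquitin ligase that holds p53 down, by 0.64. The p53 targets of apoptosis and DNA repair did not move together. Of 20 tested, 4 rose and 2 fell, with a median of 0.02. Rises numbered 2 without control replicate 1 or quercetin replicate 4 or 6, and falls numbered 1 in 7 of 12 fits without 1 array, among them those without quercetin replicate 5 or 6. Aen, an apoptosis-enhancing nuclease, rose by 1.33 ± 0.18 (SE, adjusted p = 0.0002, limma), and its control maximum of 6.32 lay under its treated minimum of 7.05. Polk, a DNA polymerase that copies past lesions, rose by 0.53, and Mgmt, which removes alkyl groups from guanine, rose by 0.50. The call for Mgmt was lost without control replicate 1 or 5 or quercetin replicate 4 or 6, with an adjusted p of 0.0692 at most. Perp and Bbc3, which promote cell death, fell by 0.47 and 0.46, and the call for Bbc3 was lost in 9 of 12 fits without 1 array (adjusted p at most 0.121).

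The largest rise of all was that of the probe set for Cplane1, a ciliogenesis and planar polarity effector. Its log2 level was between 4.25 and 4.67 in controls, with a median of 4.48, and between 8.02 and 9.47 in treated mice, with a median of 8.75. The difference was 4.27 ± 0.62 (SE, adjusted p = 0.000211, limma). Its control level is dim, so the size depends on the added constant, and the difference was 5.94 with a constant of 1 and 2.76 with 64. The other 5 probe sets for this gene did not move as one: their differences ran from -0.21 to 2.54, and 4 of them were above 0. Ptgds, prostaglandin D2 synthase, rose by 2.25 ± 0.32 (SE), from a control range of 4.88 to 5.47 to a treated range of 6.88 to 7.90.

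The list of cell cycle and replication genes, which shares Ccnd1 with the p53 arrest targets, gave 4 rises and no fall among 29 tested, with a median of 0.08. It gave 2 rises without control replicate 3 or 4 or quercetin replicate 4 or 6, and 1 fall without control replicate 5. Ccnb2, cyclin B2, rose by 0.63 and Cdc20, an activator of the anaphase-promoting complex, by 0.64, both from low levels (control medians 4.41 and 4.86). The call for Cdc20 was lost in 7 of 12 fits without 1 array (adjusted p at most 0.094).

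Genes of drug metabolism that the nuclear receptors CAR and PXR control were raised. Of 23 tested, 11 rose and 1 fell, with a median difference of 0.50. Cyp2c39, a cytochrome P450, had log2 levels of 6.34, 6.94 and 7.58 at the lowest, median and highest control and 8.26, 9.84 and 10.88 in treated mice. The groups did not overlap, although the treated mice spread over more than 2 log2 units, and the difference was 2.90 ± 0.47 (SE, adjusted p = 0.000572, limma). Cyp2b9 ran from 4.93 through 5.46 to 6.01 in controls and from 6.83 through 8.22 to 8.90 in treated mice, a difference of 2.64 ± 0.48 (SE, adjusted p = 0.00154). Cyp2c38 rose by 2.25 ± 0.46 (SE), and Slco1a4, a hepatic uptake transporter, by 2.00 ± 0.33 (SE). Members of the Cyp2b and Cyp2c families are close in sequence, so that their probe sets may share signal. Cyp2b10, the best-known CAR target, had a median of 4.59 in controls and 5.57 in treated mice, and its difference of 0.86 ± 0.34 (SE, adjusted p = 0.153) did not pass. Cyp2c29, another P450 of the list, fell by 0.51. Cyp1a2, a target of the aryl hydrocarbon receptor, was the only call among 6 such genes tested, and it fell by 0.56 ± 0.15 (SE), a call lost without control replicate 3 or quercetin replicate 6 (adjusted p at most 0.0628).

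Some enzymes that conjugate electrophiles to glutathione were raised. Of 19 glutathione transferases tested, 7 rose and 1 fell, with 12 above and 7 below 0. Rises numbered 4 without quercetin replicate 5 and 4 without replicate 6. Gsta2, an alpha-class transferase, had control levels of 6.52, 6.97 and 7.33 (lowest, median, highest) and treated levels of 8.0, 9.31 and 10.10. No treated mouse overlapped the controls, and the difference was 2.24 ± 0.42 (SE, adjusted p = 0.00174, limma), 4.71-fold. Gstt2 rose by 1.09 ± 0.21 (SE) and Gstm3 by 1.04 ± 0.25 (SE), while Gstm6 fell by 0.51. Of 23 other genes that the oxidant sensor NRF2 controls, 5 rose and none fell, with a median of 0.13. Ephx1, microsomal epoxide hydrolase, went from a control range of 9.09 to 9.63 to a treated range of 10.82 to 11.41, a difference of 1.65 ± 0.25 (SE, adjusted p = 0.000247). Srxn1, sulfiredoxin, rose by 0.73, Ugdh, which makes UDP-glucuronate, by 0.74, Nfe2l2, the gene of NRF2 itself, by 0.68, and Gclm, a subunit of the enzyme that starts glutathione synthesis, by 0.37, a call lost in 8 of 12 fits without 1 array (adjusted p at most 0.125). An antioxidant response sequence, TGACNNNGC on either strand, was found in the promoters of 4 of 12 called members of both lists, against 12.4% of all promoters. The familiar NRF2 targets Nqo1 and Hmox1 had differences of 0.32 ± 0.15 (SE, adjusted p = 0.236) and 0.29 ± 0.14 (SE, adjusted p = 0.264) and were not called.

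The metallothioneins, which bind zinc and copper and respond to metals, glucocorticoids and stress, were higher in every treated mouse than in any control. Mt1 had control levels of 6.10, 7.20 and 7.34 and treated levels of 7.77, 9.07 and 10.32 at the lowest, median and highest mouse. Its difference was 2.02 ± 0.46 (SE, adjusted p = 0.00869, limma), and that of Mt2 was 1.53 ± 0.35 (SE, adjusted p = 0.00814). Nnmt, which methylates nicotinamide with S-adenosylmethionine, went from 4.85, 4.97 and 6.12 to 7.30, 8.38 and 9.45. Its difference of 3.07 ± 0.53 (SE, adjusted p = 0.00114) left no overlap, and was 3.81 and 2.08 with added constants of 1 and 64. Mat1a, the liver enzyme that makes S-adenosylmethionine, rose by 0.96 ± 0.17 (SE, adjusted p = 0.00114).

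Liver genes that differ between the sexes in mice, which growth hormone controls through the pattern of its release, moved in opposite directions according to their bias, although all mice were male. Of 22 male-biased genes tested, 11 fell and none rose, with a median of -0.81. Of 20 female-biased genes tested, 13 rose and none fell, with a median of 0.76. Hsd3b5, a steroid-metabolizing enzyme of male liver, had control levels within 11.26 and 11.55, with a median of 11.37. In treated mice it was 8.97, 10.51, 8.24, 10.34, 7.01 and 6.63 in replicates 1 to 6. All treated mice were below the controls, least so replicates 2 and 4 and most so replicates 5 and 6, and the difference was -2.77 ± 0.52 (SE, adjusted p = 0.00174, limma). Serpina12, the gene of vaspin, went from 8.55, 9.17 and 9.71 to 5.62, 5.91 and 8.36, a difference of -2.55 ± 0.52 (SE, adjusted p = 0.0036), and again replicates 2 and 4 were nearest to the controls, at 8.32 and 8.36. Serpina4-ps1, a pseudogene of the serpin family, fell by 2.64 ± 0.50 (SE) without overlap. Elovl3, a fatty acid elongase, fell by 2.05 ± 0.53 (SE, adjusted p = 0.019), with a treated range of 6.28 to 10.96 in which replicates 5 and 6 were lowest, and its call was lost without quercetin replicate 5 or 6 (adjusted p 0.0656 and 0.0523). The count of falling male-biased genes was 6 without replicate 5 and 7 without replicate 6. It reached 15 at most in fits without 1 array, and was 18 under median scaling.

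Among the female-biased genes, Cyp2c39, Cyp2b9 and Cyp2c38 are also on the drug metabolism list. Cd36, a scavenger receptor that takes up fatty acids, went from 5.23, 5.68 and 5.80 in controls to 6.68, 7.92 and 8.19 in treated mice. Its difference was 2.10 ± 0.37 (SE, adjusted p = 0.00128), with no overlap. Cyp17a1, a steroid hydroxylase, rose by 1.97 ± 0.36 (SE). Of 13 genes of the growth hormone axis, 2 fell and none rose. Ghr, the growth hormone receptor, went from a control range of 11.08 to 11.30 to a treated range of 10.20 to 11.03, a difference of -0.61 ± 0.14 (SE, adjusted p = 0.00854). Igfals, which holds IGF1 in the circulation, fell by 0.43, a call lost without control replicate 3 or quercetin replicate 5 (adjusted p at most 0.0645). Igf1 itself had a difference of 0.07 ± 0.09 (SE, adjusted p = 0.731), and its 3 other probe sets lay below 0, between -0.43 and -0.12.

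**Figure D4:**
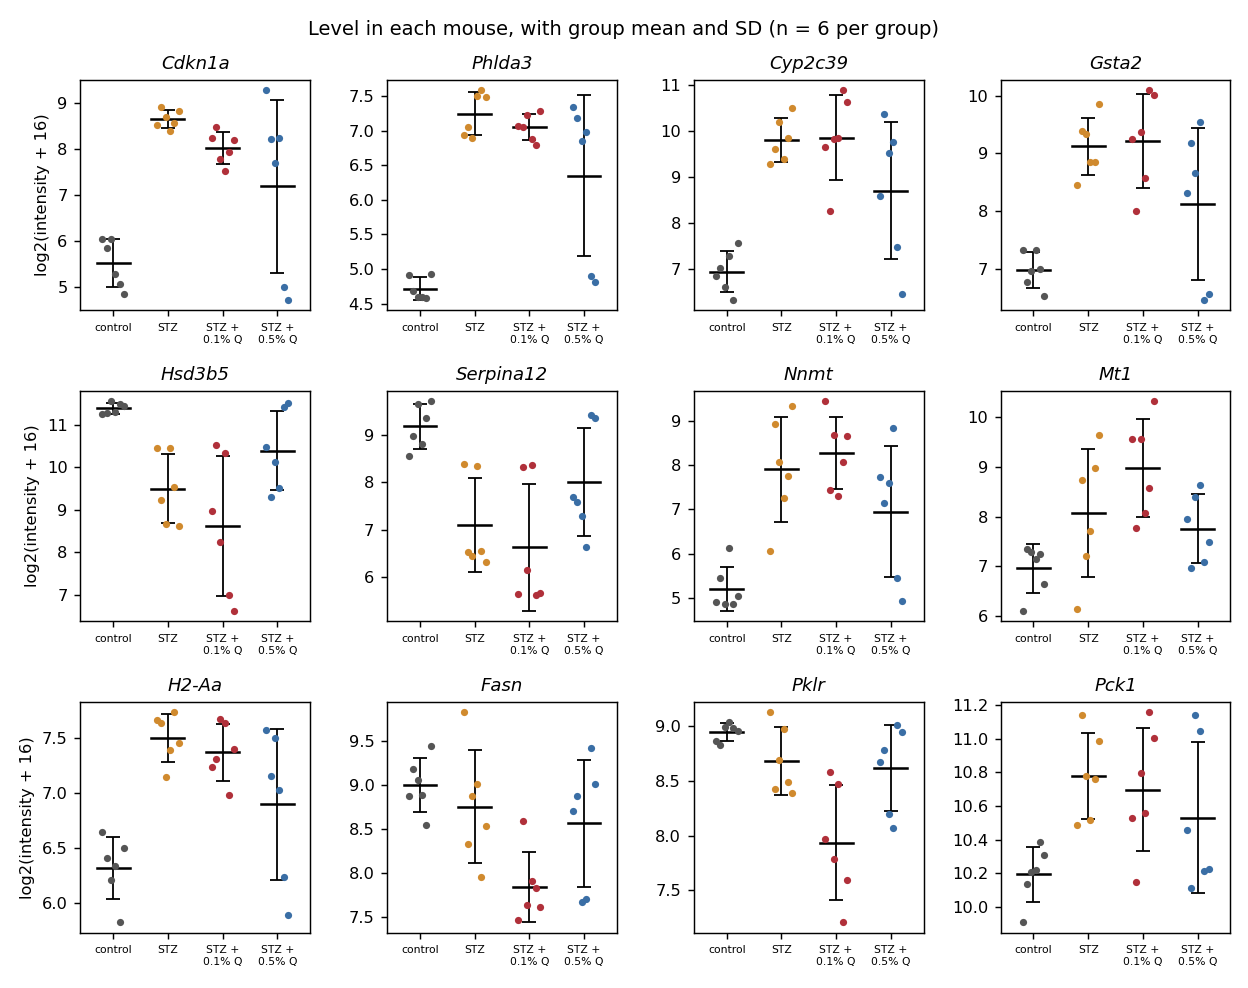
Log2 level of 12 genes in each of the 24 mice, by group; points are mice, black lines are the mean and SD of 6. Controls and 0.1% quercetin mice do not overlap for Cdkn1a, Phlda3, Cyp2c39, Gsta2, Hsd3b5, Serpina12, Nnmt, Mt1, H2-Aa and Pklr, and they overlap for Fasn and Pck1.

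Genes of the immune response rose in several lists. Interferon-stimulated genes of type I, which are induced through a short promoter element that contains 2 copies of TTTC with 2 bases between them, gave 8 rises and no fall among 31 tested, with a median of 0.21. Interferon-induced GTPases gave 3 rises and no fall among 10, and 1 rise without control replicate 4 or 6 or quercetin replicate 1 or 5. RefSeq promoters, 250 bases before to 50 after the start (GRCm38.p6), were at hand for 6 of these 11 called genes, and 5 of them held the element on either strand, against 3.44% of the 32851 promoters in the table. The 80 bases before the start are printed here for the 4 of these genes that hold it upstream, because they show the element that these called genes share. Capitals mark the element, read on the gene's strand, and the opposite orientation appears as GAAA with 2 bases before the next GAAA.
Oas1a: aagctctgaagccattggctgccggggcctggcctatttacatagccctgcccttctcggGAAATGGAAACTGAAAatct
Gbp3: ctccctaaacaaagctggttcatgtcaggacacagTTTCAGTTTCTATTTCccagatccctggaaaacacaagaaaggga
Gbp7: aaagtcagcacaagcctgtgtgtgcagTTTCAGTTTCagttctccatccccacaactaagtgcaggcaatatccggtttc
Igtp: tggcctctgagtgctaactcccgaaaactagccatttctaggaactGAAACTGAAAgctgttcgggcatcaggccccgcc
These stretches lie at chr5:120907526-120907605 (minus strand), chr3:142559964-142560043, chr3:142530256-142530335 and chr11:58199476-58199555 (plus strand), all in GRCm38.p6. The element is 2 overlapping pairs in Oas1a and in Gbp3. A match is a description of the letters and not evidence of binding. The lists were made of genes known to be induced by interferon, so a share above that of all promoters comes with the choice of list. Uncalled members were not scanned, so the share does not set called members apart. For the antioxidant, class II and sterol sequences, too, only called members were scanned.

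Oas1a, which makes the 2'-5' oligoadenylates that activate RNase L, rose by 0.79 ± 0.21 (SE, adjusted p = 0.0213, limma), and all 6 treated mice lay above all controls, but the call was lost without quercetin replicate 5 (adjusted p = 0.0686). Gbp3, a guanylate-binding protein, went from 4.84, 5.10 and 5.13 in controls to 5.50, 5.84 and 6.69 in treated mice, a difference of 0.89 ± 0.18 (SE, adjusted p = 0.00259). Gbp7 rose by 0.36 ± 0.10 (SE, adjusted p = 0.0382) and Igtp by 0.54 ± 0.15 (SE, adjusted p = 0.0316). The call for Gbp7 was lost in 9 and that for Igtp in 7 of the 12 fits without 1 control or 0.1% quercetin array, with adjusted p of 0.0923 and 0.0812 at most, so both lie near the threshold. Usp18, a protease that damps interferon signalling, rose by 1.24 ± 0.25 (SE, adjusted p = 0.00351), from a control maximum of 6.35 to a treated minimum of 6.83. Ifi27l2b rose by 1.05 ± 0.12 (SE, adjusted p = 2.35e-05), from 4.30 to 4.78 in controls to 5.29 to 5.87 in treated mice, and was 1 of the 2 genes that also passed with the Gapdh covariate. Irf7, the transcription factor that amplifies the interferon response, rose by 0.99 ± 0.26 (SE, adjusted p = 0.0224), a call lost without control replicate 6 or quercetin replicate 5 (adjusted p 0.0552 and 0.0693). Its promoter in the table did not hold the element in this window.

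Genes that present antigen on MHC class II were higher as well. Of 9 tested, 6 rose and none fell, with a median of 0.47, and 3 rose without control replicate 5 or without quercetin replicate 3. H2-Aa and H2-Eb1 encode chains of the class II molecules, and their promoters are known for a CCAAT box, ATTGG when read on the other strand. Of the 6 called members 4 had a promoter in the table, and 3 of these held the box, against 37.4% of all promoters. The 100 bases before the start are shown for both, with the box in capitals, because these genes had the largest differences of the list.
H2-Aa: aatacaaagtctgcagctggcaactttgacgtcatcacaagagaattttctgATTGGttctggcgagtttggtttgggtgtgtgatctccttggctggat
H2-Eb1: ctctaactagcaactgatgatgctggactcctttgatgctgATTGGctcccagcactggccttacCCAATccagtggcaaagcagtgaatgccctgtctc
They lie at chr17:34287824-34287923 (minus strand) and chr17:34305767-34305866 (plus strand) in GRCm38.p6. H2-Aa went from 5.83, 6.37 and 6.64 in controls to 6.98, 7.35 and 7.67 in treated mice, a difference of 1.05 ± 0.21 (SE, adjusted p = 0.00328, limma). H2-Eb1 went from 5.70, 5.90 and 6.17 to 6.69, 6.91 and 7.23, a difference of 1.06 ± 0.17 (SE, adjusted p = 0.000511). For both genes the treated mice lay above all controls. Class I genes and the immunoproteasome gave 6 rises among 13, led by H2-K1 at 0.59 ± 0.12 (SE) and H2-D1 at 0.57 ± 0.13 (SE). Rises in that list numbered 3 without control replicate 4, 5 or 6 or quercetin replicate 3, 5 or 6, and 2 under median scaling. The classical class I genes are near-copies of each other, so their probe sets may share signal. Cytokines, chemokines and adhesion molecules under NF-kappaB gave 0 calls among 18 tested by limma, and 5 had an unadjusted p under 0.05.

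Markers of cells other than hepatocytes moved beside these lists, and in whole liver more cells of a type and more RNA per cell cannot be told apart. Of 15 Kupffer cell and macrophage markers tested, 5 rose and none fell, but 3 rose in 9 of 12 fits without 1 array (all but those without control replicate 1 or 4 or quercetin replicate 6) and under median scaling. Cd5l, a protein secreted by macrophages, rose by 0.66 ± 0.14 (SE, adjusted p = 0.00623, limma) and C1qb, a chain of complement C1q, by 0.64 ± 0.15 (SE, adjusted p = 0.00945). The summed intensity of the list was 2080 to 2380 in controls and 2690 to 3130 in treated mice, with no overlap, and 1 of its 16 markers, Marco, was under the level filter. Its part in the rise of the antigen presentation genes was not tested. Among the B and plasma cell markers, Ighm and Jchain were lower. Ighm, the immunoglobulin M heavy chain, went from 7.07, 7.32 and 8.12 to 5.25, 5.61 and 6.27, a difference of -1.76 ± 0.30 (SE, adjusted p = 0.00107), and Jchain, which joins immunoglobulin chains, fell by 0.66 ± 0.13 (SE). Those were the only calls among 10 tested B, plasma and T cell markers, which had a median of -0.10. The summed intensity of the list was 219 to 377 in controls and 105 to 151 in treated mice, and without Ighm it overlapped, at 81.7 to 115 and 73.8 to 89.8. Cd79a, Cd3d, Cd3e, Cd4 and Nkg7 were under the filter, and of the 4 other probe sets for Ighm 2 lay below 0.

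Neutrophil markers gave 1 rise among 8, Lcn2, which hepatocytes also make in the acute phase. The sum of that list was 92.8 to 174 in controls and 188 to 691 in treated mice, and without Lcn2 it was 65.3 to 112 and 67.8 to 103. Endothelial markers gave 1 rise among 12, Lyve1, a hyaluronan receptor of sinusoidal endothelium, at 1.02 ± 0.18 (SE, adjusted p = 0.00123), while the list's sum overlapped (933 to 1060 and 992 to 1070). This call is 8.33% of the list, beside 5.57% of all genes tested called in either direction. Bile duct markers gave 1 rise among 5, Krt18, a keratin that hepatocytes also make, at 0.39 ± 0.10 (SE, adjusted p = 0.0157), a call lost without quercetin replicate 5. The sum of that list was 1190 to 1520 in controls and 1630 to 2010 in treated mice, and without Krt18 it was 536 to 694 and 744 to 883, with no overlap. The members did not move as one: of the 5 tested, 2 had all treated mice above all controls and 1 had all below. Krt7 and Cftr were under the filter. The parts of bile duct cells and of hepatocytes in these sums were not tested. Stellate cell and matrix genes gave 2 rises and 1 fall among 23, led by Mmp14, a membrane metalloproteinase, at 0.52 ± 0.09 (SE), with 1 of its 2 other probe sets below 0. Cela1, an elastase on the exocrine pancreas list, fell by 1.36 ± 0.20 (SE, adjusted p = 0.000247), from 8.93 to 9.34 in controls to 7.34 to 8.20 in treated mice. The pancreatic markers Cela2a, Ctrb1, Cpa1 and Clps were under the filter. Hepatocyte markers summed to 68300 to 70300 in controls and 70200 to 71200 in treated mice.

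Proteins of the acute phase and of complement, which hepatocytes secrete, were split. Of 24 acute phase genes tested, 4 rose and none fell. Lcn2, an iron-scavenging lipocalin, went from 5.44, 5.95 and 6.48 to 6.92, 7.26 and 9.24, a difference of 1.71 ± 0.35 (SE, adjusted p = 0.00401, limma), and replicate 1 was the highest treated mouse. Orm2, an orosomucoid, rose by 1.60 ± 0.39 (SE, adjusted p = 0.0129). Of 17 complement components tested, 2 rose and 6 fell. Mbl2, a mannose-binding lectin that starts the lectin pathway, went from 10.48, 10.64 and 10.80 to 11.67, 11.83 and 11.91, a rise of 1.17 ± 0.17 (SE, adjusted p = 0.000211) with no overlap. C8a and C6, components of the membrane attack complex, fell by 0.61 ± 0.14 (SE) and 0.93 ± 0.25 (SE). The call for C6 was lost without quercetin replicate 3, 5 or 6 (adjusted p at most 0.078), and the count of falling complement genes was 1 without quercetin replicate 3, 5 or 6, 2 without control replicate 2 or 3 and 3 without control replicate 4, 5 or 6.

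Genes of glucose metabolism changed in a few members. Among 17 genes of glycolysis, fructose use and glucose uptake tested, Pklr was the only call. That is 5.88% of the list, near the 5.57% of all genes tested that were called in either direction. Pklr encodes the liver pyruvate kinase, which sugar and insulin induce. It went from 8.83, 8.97 and 9.04 in controls to 7.21, 7.88 and 8.58 in treated mice, a difference of -1.01 ± 0.19 (SE, adjusted p = 0.00183, limma), and all treated mice were below all controls. Glycogen genes gave 1 rise and 3 falls among 16. The rise was lost in 11 of 12 fits without 1 array and under median scaling. Ppp1r3c, which brings protein phosphatase 1 to glycogen, went from 8.98, 9.38 and 9.57 to 7.95, 8.30 and 8.66, a difference of -1.03 ± 0.18 (SE, adjusted p = 0.00128). Ppp1r3b, the related subunit of liver, fell by 0.87 ± 0.21 (SE), with 4 of 6 treated mice below all controls.

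Gluconeogenesis gave 1 rise and 1 fall among 18, beside 2.94% and 2.64% of all genes tested. Rises numbered 3 without quercetin replicate 2, and 0 in every other fit without 1 array and under median scaling. Pck1, the cytosolic phosphoenolpyruvate carboxykinase, had levels of 9.91, 10.21 and 10.39 in controls and 10.15, 10.68 and 11.15 in treated mice. The difference of 0.50 ± 0.17 (SE, adjusted p = 0.0859) did not pass, although 5 of 6 treated mice lay above all controls. It passed without quercetin replicate 2 (adjusted p = 0.0267) and with only the groups compared (adjusted p = 0.0495), and its other probe set differed by 1.00. G6pc, the catalytic subunit of glucose-6-phosphatase, had a difference of -0.58 ± 0.30 (SE, adjusted p = 0.297), and the groups overlapped. Gcgr, the glucagon receptor, fell by 0.30 ± 0.07 (SE, adjusted p = 0.00661). Igfbp2, which binds IGF1 and IGF2, rose by 1.25 ± 0.29 (SE, adjusted p = 0.00984), while Igfbp1, which insulin holds down, had a difference of 0.57 ± 0.33 (SE, adjusted p = 0.357).

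Enzymes of fatty acid and triglyceride synthesis were lower. Of 26 tested, 6 fell and 1 rose, and 19 lay below 0, with a median of -0.44. Fasn, fatty acid synthase, had levels of 8.55, 8.97 and 9.44 in controls and 7.47, 7.74 and 8.59 in treated mice. Of the treated mice 5 lay below all controls, replicate 2 being the exception, and the difference was -1.15 ± 0.28 (SE, adjusted p = 0.0118, limma), a 2.22-fold fall. Acly, which makes acetyl-CoA from citrate, went from 9.55, 9.75 and 10.06 to 7.87, 8.64 and 9.61. Its difference was -1.19 ± 0.32 (SE, adjusted p = 0.0253), and replicate 2 was again within the controls. The call was lost without control replicate 6 or quercetin replicate 5 or 6 (adjusted p 0.0554, 0.077 and 0.0755), and 3 of its 4 other probe sets were below 0. Srebf1, the gene of the SREBP-1 factor, fell by 0.67 ± 0.19 (SE, adjusted p = 0.0339) and Scd1, the main desaturase, by 0.64 ± 0.18 (SE, adjusted p = 0.0339). The call for Srebf1 was lost without control replicate 2, 4 or 6 or quercetin replicate 1, 5 or 6 (adjusted p at most 0.0955). That for Scd1 was kept only without control replicate 4 or quercetin replicate 2 or 4 (adjusted p at most 0.0923). Both were also lost with no normalization, with a constant of 1 and with only the groups compared, and Srebf1 with replicate number as a block in the fit. Gpam, the first acyltransferase of triglyceride synthesis, fell by 0.65 ± 0.12 (SE, adjusted p = 0.00154), with all 6 mice below all controls. The 1 rise was Mogat1, a monoacylglycerol acyltransferase that PPARgamma induces in fatty liver, at 0.55 ± 0.14 (SE). Falls in this list numbered 3 without control replicate 6 or quercetin replicate 5 or 6, 10 without quercetin replicate 2, and 11 under median scaling.

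Cholesterol synthesis and sterol response gave 4 falls and no rise among 20, with 18 below 0 and a median of -0.31. Sc5d, a late enzyme of the pathway, went from 9.65, 9.88 and 10.28 to 8.04, 9.23 and 9.61, a difference of -0.99 ± 0.24 (SE, adjusted p = 0.0123, limma). Hmgcs1, the synthase ahead of the rate-limiting reductase, had a difference of -0.82 ± 0.24 (SE, adjusted p = 0.0391). Its call was lost without control replicate 1, 2, 3 or 6 or quercetin replicate 5 or 6, with an adjusted p of 0.121 at most. It was also lost with replicate number as a block in the fit. The list gave 1 fall without control replicate 1, 2 or 6 or quercetin replicate 5 or 6, and 2 without control replicate 3 or quercetin replicate 3. Hmgcs1 was the only one of the 4 called genes whose RefSeq promoter held TCACNCCAC, a sterol-response sequence, on either strand, against 1.24% of all promoters. It is shown for 60 bases with the match in capitals, as the case where a called gene of this list holds the motif.
Hmgcs1: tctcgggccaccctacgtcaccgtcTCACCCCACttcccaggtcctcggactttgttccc
The stretch is chr13:119690189-119690248 on the plus strand of GRCm38.p6, and the match starts 137 bases before the start.

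Of 33 genes of fatty acid oxidation and ketogenesis, 5 rose and 2 fell, with a median of 0.13. Falls numbered 1 without control replicate 2 or 6 or quercetin replicate 3, and 0 without quercetin replicate 5 or 6. Cyp4a14, a fatty acid omega-hydroxylase and PPARalpha target, went from 4.09, 4.41 and 4.82 in controls to 5.68, 7.82 and 9.59 in treated mice. The difference was 3.18 ± 0.62 (SE, adjusted p = 0.00244, limma), and 4.83 and 1.92 with added constants of 1 and 64, since controls were dim. The treated mice spread widely, highest in replicates 5 and 6. Acot3, an acyl-CoA thioesterase of peroxisomes, rose by 1.36 ± 0.31 (SE). Fabp5, a fatty acid-binding protein, fell by 2.20 ± 0.51 (SE, adjusted p = 0.00945), from 9.08, 10.31 and 11.19 to 7.05, 7.92 and 9.91, with 5 of 6 mice below all controls. Among lipid droplet and PPARgamma genes 5 rose and 1 fell of 17: Cd36 as above, Vldlr, a lipoprotein receptor, by 0.60, Pparg, the receptor itself, by 0.37 (adjusted p = 0.0357, lost in 7 of 12 fits without 1 array, at most 0.081), and G0s2, an inhibitor of triglyceride lipase, which fell by 1.24 ± 0.34 (SE, adjusted p = 0.0307, at most 0.0979 in fits without 1 array). Apolipoprotein genes gave 4 rises and 1 fall among 20, led by the rises of Apoa4 at 0.80 ± 0.15 (SE) and Apoc2 at 0.62 ± 0.12 (SE), proteins of triglyceride-rich lipoproteins. Rises in that list numbered 1 under median scaling, and the fall was lost in 6 of 12 fits without 1 array. The call for Apoc2 was lost under median scaling and with no normalization.

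Bile acid genes gave 2 rises and 4 falls among 22. Falls numbered 2 without control replicate 1, 2, 3 or 4 or quercetin replicate 3 or 5, and 1 without quercetin replicate 6. The rises numbered 1 in 9 of 12 fits without 1 array, quercetin replicates 5 and 6 included. Slco1a1, an uptake transporter of male liver, fell by 1.30 ± 0.25 (SE, adjusted p = 0.00246, limma), from a control range of 10.18 to 10.41 to a treated range of 8.21 to 9.99. Abcb4, which exports phospholipid into bile, rose by 0.89 ± 0.13 (SE, adjusted p = 0.000211), from 8.86 to 9.14 to 9.72 to 10.37. Cyp7b1, an oxysterol hydroxylase, fell by 0.85 ± 0.22 (SE), a call lost without quercetin replicate 3, 5 or 6 (adjusted p at most 0.0664). Cyp7a1, whose enzyme sets the pace of bile acid synthesis, ranged from 4.63 to 7.72 in controls and from 4.83 to 8.95 in treated mice, and its difference of 0.61 ± 0.67 (SE, adjusted p = 0.679) did not pass. In controls its replicates 1 to 3 lay at 5.04 or lower and 4 to 6 at 6.53 or higher. The 0.1% quercetin mice were highest in replicate 4 and lowest in replicate 2.

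In amino acid metabolism, 4 of 31 genes rose and none fell, but 2 rose in 10 of 12 fits without 1 array (all but those without quercetin replicate 2 or 4) and under median scaling. Asl, argininosuccinate lyase of the urea cycle, went from 8.92, 9.24 and 9.39 to 10.02, 10.54 and 11.13, a difference of 1.34 ± 0.29 (SE, adjusted p = 0.00547, limma). Oat, ornithine aminotransferase, rose by 1.20 ± 0.24 (SE, adjusted p = 0.00351). In both genes all treated mice lay above all controls. Of 22 genes of AMPK, sirtuins and NAD supply, 3 fell and none rose, led by Qprt, which makes NAD from tryptophan, at -0.47 ± 0.09 (SE, adjusted p = 0.00244). Among 18 core clock genes 1 rose and 1 fell, 11.1% of the list beside 5.57% of all genes tested. Nfil3, a repressor in the clock output, differed by -0.90 ± 0.21 (SE, adjusted p = 0.0113). Both in controls and in 0.1% quercetin its replicates 1 and 2 were the highest mice. Ciart, a repressor of the clock, rose by 0.90 ± 0.25 (SE, adjusted p = 0.0287). Its controls were dim, at 4.04 to 4.17. The difference ran from 0.33 to 2.66 over the alternatives, and the call was lost with a constant of 1. It was lost without control replicate 1, 2 or 3 or quercetin replicate 3, 4, 5 or 6 (adjusted p at most 0.0891). Quercetin replicates 1 and 2 lay at 4.32 and 4.05, and 3 to 6 at 5.21 or higher. The highest mice were replicates 5 and 6 in STZ alone and 3 and 4 in 0.5% quercetin. A replicate-number block kept the call, but the part of replicate order was not tested.

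Whether the 0.1% quercetin group differed from STZ alone was tested by contrasting these groups directly. No gene passed, 0% of those tested (limma, Benjamini-Hochberg), with a smallest adjusted p of 0.356 and 687 genes at an unadjusted p under 0.05. STZ alone against the same controls gave 266 rises and 222 falls, 3.72% of genes. As the comparisons use the same 6 control mice, their values are given side by side and not counted against each other. Cdkn1a differed from control by 2.51 with 0.1% quercetin and by 3.13 with STZ alone, Cyp2c39 by 2.90 and 2.85, Gsta2 by 2.24 and 2.14, H2-Aa by 1.05 and 1.18, and Ighm by -1.76 and -1.63. Tested directly, these differences between the STZ groups lay between -0.62 and 0.09, with adjusted p of 0.992 or more.

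The 5 smallest p values against STZ were those of Pdk4, Pklr, 1700094D03Rik, Fa2h and Aff2. Pdk4, the kinase that shuts pyruvate dehydrogenase in fasting, was 0.64 ± 0.13 (SE) lower with 0.1% quercetin than with STZ alone (adjusted p = 0.356, limma), having a difference from control of -0.23 with quercetin and 0.41 without. Pklr differed from control by -1.01 with quercetin and by -0.26 with STZ alone, and the difference between the STZ groups was -0.75 ± 0.19 (SE, adjusted p = 0.87). Fasn stood at -1.15 and -0.24, Acly at -1.19 and -0.18, Scd1 at -0.64 and -0.07 and Sc5d at -0.99 and -0.34. Mt1 stood at 2.02 and 1.10, and Igfbp1 at 0.57 and 1.41. None of these differences between the STZ groups passed the adjustment, so an effect of quercetin on them is not shown, and equality is not shown either. In the direct contrast the lipid synthesis list had 0 calls, a median of -0.25 and 22 of 26 genes below 0.

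**Figure D5:**
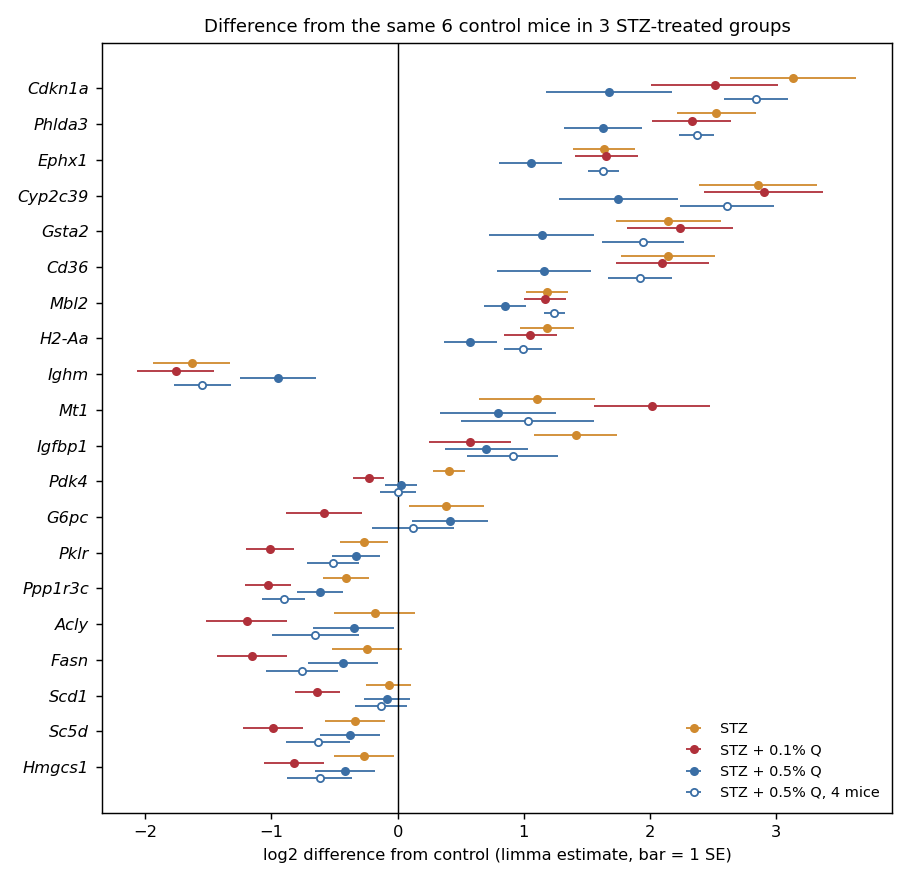
Log2 difference from control (x axis) of 20 genes in mice given STZ alone, STZ plus 0.1% quercetin and STZ plus 0.5% quercetin, the last with all 6 mice (filled) and without replicates 5 and 6 (open); bars are 1 SE of the limma fit and all 3 groups share the 6 controls. Cyp2c39, Gsta2 and H2-Aa have close estimates in STZ alone and 0.1% quercetin. Cdkn1a, Pklr, Acly, Fasn and Scd1 are among the genes that lie lower at 0.1% quercetin than in STZ alone. None of these differences passed the test.

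With 0.5% quercetin, 7 genes rose and 10 fell against control, 0.13% of those tested, and 233 rose and 199 fell when replicates 5 and 6 of that group were left out. Those libraries had Cdkn1a levels of 5.01 and 4.72, within or below the control range of 4.85 to 6.04, where the 4 other mice of that group were at 7.70 or higher. No gene differed between 0.5% and 0.1% quercetin, 0% of those tested (limma, Benjamini-Hochberg, smallest adjusted p 0.0873, with 1094 genes at an unadjusted p under 0.05). Without these libraries the count was also 0, with a smallest adjusted p of 0.919 and 654 genes at an unadjusted p under 0.05. Cdkn1a differed from control by 1.67 at 0.5% quercetin and by 2.84 without the 2 libraries, and Fasn by -0.43 and -0.76.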

How the data were processed

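Total RNA of each liver was labelled as biotin cRNA and hybridised to Affymetrix 3' expression arrays, 1 mouse to an array, per the labels' protocols. The values deposited by the authors were linear probe set intensities for 45101 probe sets, and the summary algorithm, any scaling and detection calls are not given in the sources used here. The intensities were quantile normalized over the 24 arrays and taken as log2(value + 16) in R 4.3.3. Symbols came from the platform annotation; 34741 of the 34958 probe sets with 1 symbol matched RefSeq by gene ID, while 932 with several symbols and 9211 with none were left out. A gene took its brightest probe set, and genes under the 40th percentile of probe set means were left out. The 4 group means were fitted over 24 arrays with limma 3.58.1 (lmFit, eBayes, two-sided, Benjamini-Hochberg, threshold 0.05), so all groups share 1 estimate of the spread. The fit was tested on simulated data. The 6 mice of a group were taken as independent, and the number of arrays limits the precision.

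Named were the 10 largest rises and falls, the 3 largest called members of each of 48 lists, 20 chosen genes, of which 19 were tested, and the 5 smallest p against STZ. The members and lists were chosen with earlier results of these data known. Replicate numbers were not taken as pairs. Alternatives changed the normalization, the added constant, the filter, the arrays fitted, the model and the probe sets.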

Additional observations from a re-analysis of the deposited data

Results flagged for a closer look

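Of 240 groups of 6 mice examined, that is the controls and the 0.1% quercetin mice for each gene named and for both RNA quality measures, 14 held a mouse far from the other 5 by Dixon's gap test. Chance flags about 1 group in 20, so a count of this size is near what chance gives, and no cause was examined. All values are log2 levels.

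In the 0.1% quercetin group, replicate 5 was the lowest mouse for Polk, at 4.783 with the next at 5.076, and for Gcgr, at 8.389 with the next at 8.508. The same mouse was the highest for Mmp14, at 6.621 with the next at 6.328, and for Abcb4, at 10.37 with the next at 9.911. Replicate 1 was the highest for Orm2, at 9.067 with the next at 7.358.

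Among controls, replicate 1 was the lowest for Mt2, at 5.076 with the next at 5.94, and for Cyp17a1, at 4.102 with the next at 5.022, and it was the highest for Igfbp2, at 9.151 with the next at 8.773. Replicate 2 was the highest for C1qb, at 7.485 with the next at 7.114, and for Orm2, at 6.871 with the next at 5.801, and the lowest for Igtp, at 7.061 with the next at 7.385. Replicate 4 was the lowest for Nfe2l2, at 7.419 with the next at 7.722, replicate 5 for Cd36, at 5.231 with the next at 5.644, and replicate 6 for Obp2a, at 6.21 with the next at 7.112.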

How the results depend on the processing

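No named gene past the threshold changed sign under any alternative run. Against control, 385 genes were higher and 346 lower. With no normalization between arrays the counts were 127 and 90, under median scaling 220 and 539, and with the Gapdh 3' minus 5' covariate 2 and 0. The cause was not tested. Fits without 1 array gave 244 to 433 higher and 196 to 383 lower, both lowest without quercetin replicate 5, and 249 and 211 without replicate 6. The remaining alternatives (trimmed mean scaling, added constants of 1 and 64, no filter, a filter at the 60th percentile, only the groups compared, 0.5% quercetin replicates 5 and 6 left out, trend and robust) kept both counts within 1.5 times, as did the fit of all probe sets. A replicate block gave 348 and 297. Of same-numbered pairs 1 of 6 correlated over 0.1, and 2 of 6 arrays correlated best with their own number, so the numbers are not taken as pairs. These correlations do not measure an order of replicate numbers that the groups share. The second principal component, with 8.65% of the variance, was lower in replicates 5 and 6 than in 1 and 2 in every group. From replicate 1 to 6 it went from 7.41 to -5.25 in controls and from 6.64 to -11.7 in 0.1% quercetin. The part of replicate order in the calls was not tested. Against STZ, every alternative gave 0 calls. Between the quercetin doses, 0 to 1 gene was lower in fits without 1 array, the 1 arising without 0.5% quercetin replicate 2. Of 102 named genes past the threshold, 69 passed in every fit without 1 array, 65 passed without normalization, 90 under median scaling and 1 with the covariate. Dim genes near log2 of 16 have compressed differences.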

Other observations

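Some genes not described above changed as much as those that were, and those of this paragraph were picked after their values were seen. Ly6d and Ly6e, membrane proteins of the Ly6 family, rose by 2.09 ± 0.27 (SE, adjusted p = 0.00012, limma) and 1.97 ± 0.34 (SE, adjusted p = 0.00107), from mean log2 levels of 4.69 and 9.78 in controls to 6.78 and 11.75 in the 0.1% quercetin mice, and against the same controls STZ alone stood at 2.27 and 2.01. Among the largest falls, Rnase2a, a secreted ribonuclease, went from 5.41, 5.76 and 6.50 at the lowest, median and highest control to 4.19, 4.39 and 4.71, a difference of -1.39 ± 0.20 (SE, adjusted p = 0.000211). Obp2a, a lipocalin, fell from a mean of 7.11 to 5.61 (adjusted p = 0.00355, limma), and 1 treated mouse overlapped the controls. The transcript 1810008I18Rik fell by 1.61 ± 0.28 (SE, adjusted p = 0.00103), from 8.07 to 8.44 in controls to 5.87 to 7.58 in treated mice.

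The genes of the first enzyme of haem synthesis differed in direction. Alas1, the form that liver uses and that drug-metabolizing signals induce, rose by 1.87 ± 0.56 (SE, adjusted p = 0.0473, limma), but 3 of 6 treated mice lay above all controls and the call was lost in 9 of 12 fits without 1 array (adjusted p at most 0.138). Alas2, the form of red cell precursors, fell by 0.84 ± 0.22 (SE, adjusted p = 0.0206). The 4 lowest treated mice lay under the whole control range, and its call was lost without control replicate 3 or quercetin replicate 3, 5 or 6 (adjusted p at most 0.0686). It was the only call among 5 red cell precursor markers, which had a median of 0.00. The summed intensity of the list was 511 to 745 in controls and 224 to 653 in treated mice, and without Alas2 it was 27.4 to 57.1 and 29.9 to 38.1. The part of red cell precursors in the fall of Alas2 was not tested. Of 17 glucocorticoid-responsive genes, 3 rose (Mt1, Mt2 and Lcn2) and 2 fell. The falls were Obp2a and Dusp1. Dusp1, a phosphatase of MAP kinases, fell by 1.07 ± 0.22 (SE, adjusted p = 0.00447). Pdk1, a kinase that inhibits pyruvate dehydrogenase, fell by 0.51 ± 0.13 (SE, adjusted p = 0.0156), lost without quercetin replicate 5 (adjusted p = 0.0544), and was the only call among 11 genes of that complex and its kinases. That is 9.09% of the list, beside 5.57% of all genes tested called in either direction.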
